A study of Mus musculus with 16 samples.

Results

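Pericytes and smooth muscle cells are the mural cells that wrap the brain's capillaries, arterioles and arteries, and 10 of their marker genes were followed here by symbol: Vtn, Rgs5, Pdgfrb, Cspg4, Anpep, Kcnj8 and Abcc9 as pericyte markers, and Acta2, Tagln and Myh11 as smooth muscle markers. All 10 were present among the 33289 genes of the expression table, and all 10 were among the 17349 that were tested. The RNA came from the hemi-brain of C57BL/6J mice aged 3 to 4 months, perfused with PBS and taken 8 hours after an injection of lipopolysaccharide (LPS, the outer membrane component of Gram-negative bacteria that triggers innate immune signalling) or of saline. There were 4 libraries in each of 4 groups: LPS with the genotype label Lcn2-/-, LPS with the label wild type, saline with the label Lcn2-/-, and saline with the label wild type. Lcn2 encodes lipocalin 2, a secreted protein that binds siderophores, and the allele behind the Lcn2-/- label, the dose and the route of injection are not stated in the labels.

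Pericytes share a basement membrane with the endothelium and depend on platelet-derived growth factor B, which endothelial cells secrete and which the pericyte receptor PDGFRβ binds. In the brain they are known for their part in forming and keeping the blood-brain barrier. Arterial and arteriolar smooth muscle cells carry a contractile apparatus of smooth muscle actin and myosin, whose genes are classical targets of serum response factor (SRF) and its myocardin-family coactivators. These cells are a small part of whole brain tissue, so a lower level of a marker in bulk RNA can come from fewer cells or from less RNA per cell, and the data cannot tell these apart.

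Lcn2 itself was checked against the genotype label. Its level was 40.2, 34.1, 38.3 and 37.2 RPKM (read counts scaled to transcript length and library size) in the LPS libraries labelled Lcn2-/-, and 71.5, 67.8, 66.7 and 82.7 RPKM in the wild-type LPS libraries. In saline libraries it lay between 0.132 and 0.351 RPKM under the Lcn2-/- label and between 0.065 and 0.204 RPKM in wild type. Lcn2 RNA was thus present in the libraries labelled Lcn2-/-, and the genotype is given below as a label throughout. Which part of the gene is altered in these mice is not known here, so the level of its RNA may not check the label. The deposited values carry no counts, so the depth of each library is unknown. Saline replicate 4 labelled Lcn2-/- stood apart, with 17112 genes at 0.5 RPKM or more against 16372 to 16497 in the other 15 libraries, and results that turn on it are given with and without it. Replicates are separate samples by their labels, which name no separate litters or days, so p-values measure only how far these samples spread, which may be technical. Markers of neurons, astrocytes and oligodendrocytes were all above 0.5 RPKM in every group.

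At baseline the markers spanned a wide range of levels. In wild-type saline brains the geometric mean was 32.8 RPKM for Vtn, 25.9 for Rgs5, 15.2 for Acta2, 9.81 for Tagln, 3.64 for Pdgfrb, 3.41 for Myh11, 3.03 for Cspg4, 1.73 for Kcnj8, 1.12 for Abcc9 and 1.04 for Anpep. Neighbours in that order whose ranges overlapped were Pdgfrb and Myh11, Myh11 and Cspg4, and Abcc9 and Anpep. Differences between genes were not tested. Under the Lcn2-/- label with saline the order was the same, and Abcc9 and Anpep no longer overlapped. After LPS the ranges of Vtn and Rgs5 overlapped under both labels. All of these are levels per kilobase of transcript, but the counting rules are not stated, so how far genes can be compared is not known.

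**Figure D1:**
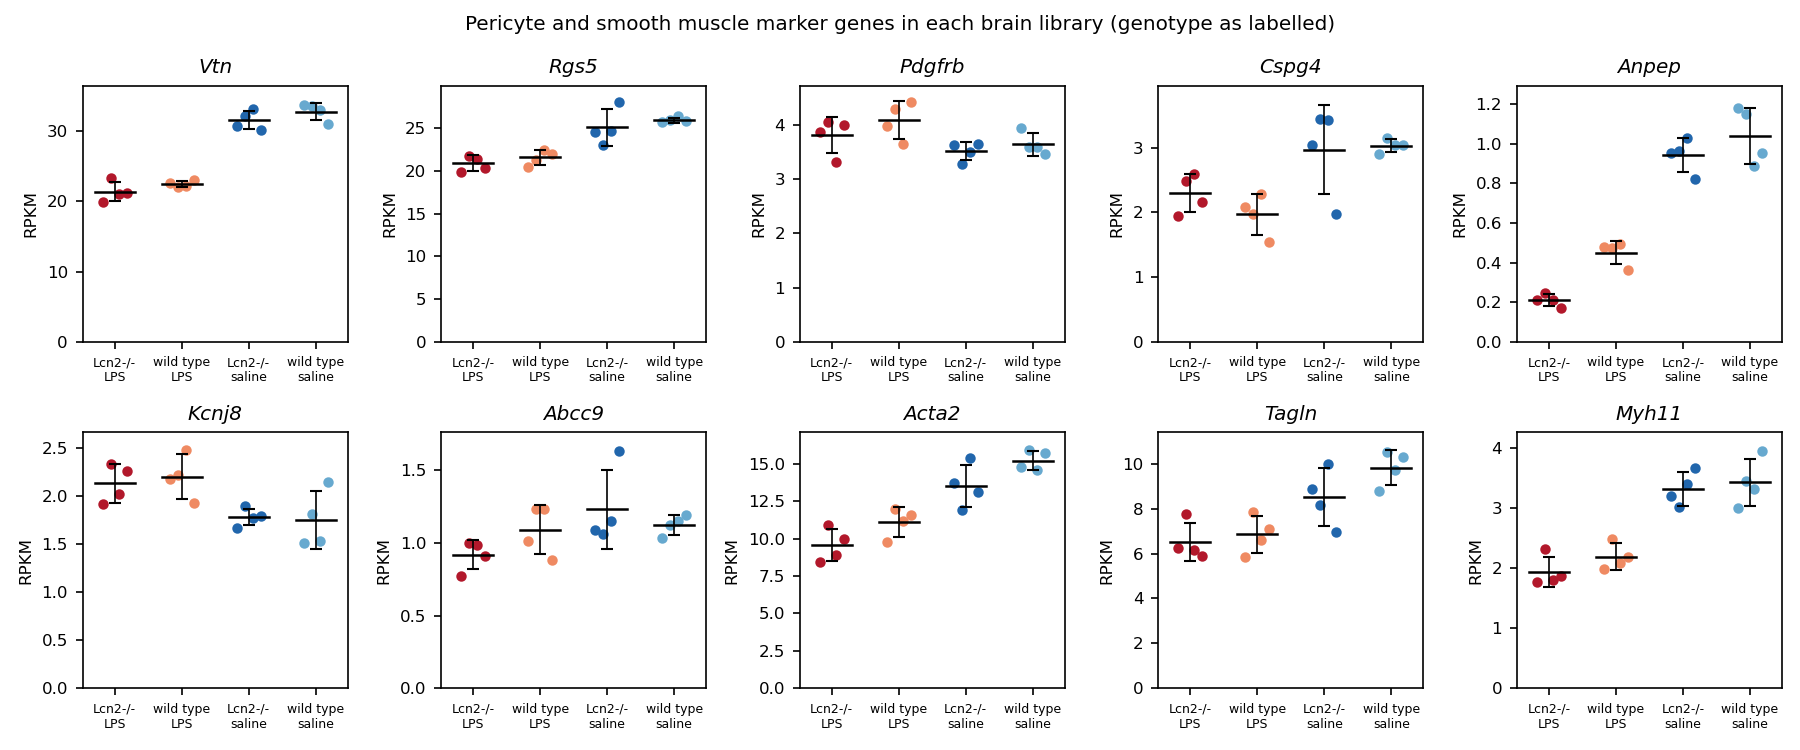
Level of each of the 10 marker genes in RPKM on a linear axis from 0, with 1 point for each library, a horizontal line at the mean and bars of 1 SD (n = 4 in each group). Under each label the LPS libraries sit below the saline libraries of the same label for Vtn, Rgs5, Acta2, Myh11 and Anpep, and Anpep alone separates the labels after LPS, at 0.172 to 0.246 RPKM under the Lcn2-/- label and 0.361 to 0.492 RPKM in wild type.

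The first question was what LPS did to these genes within each genotype label. Most of the markers were lower 8 hours after LPS. Of the 10 genes, 0 were higher and 7 lower under the Lcn2-/- label, and 1 was higher and 7 lower in wild type, at an adjusted p under 0.05 (limma, two-sided, Benjamini-Hochberg adjustment over all 17349 genes tested). Over all genes tested, 20.7% were higher and 27.7% lower under the Lcn2-/- label, and 11.4% were higher and 13.9% lower in wild type. The median log2 change over the 10 genes was -0.40 under the Lcn2-/- label and -0.49 in wild type, and over all genes tested it was -0.03 and -0.02 for the same labels. The 9 markers other than Anpep were at 0.5 RPKM or more in all 16 libraries, so the filter on low values did not shape them. Anpep passed the filter through its 8 saline libraries alone and was under 0.5 RPKM in all 8 LPS libraries, so a fall of Anpep was favoured by the filter and it is counted with that limit: 6 of the other 9 genes were lower under each label. Tagln, Acta2, Myh11, Vtn, Rgs5 and Anpep were lower under both labels.

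**Figure D2:**
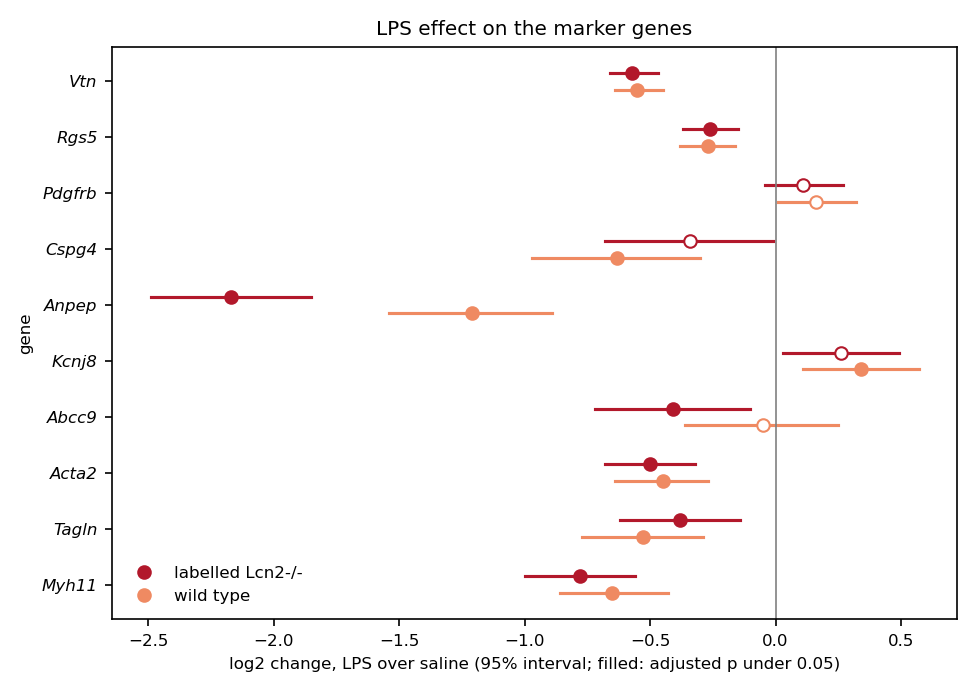
Log2 change of LPS over saline for each marker gene under each genotype label, with 95% intervals from limma (filled points: adjusted p under 0.05). Intervals lie below 0 under both labels for Vtn, Rgs5, Anpep, Acta2, Tagln, Myh11 and Cspg4, the last with a call in wild type alone. Kcnj8 lies above 0 with a call in wild type. Anpep lies furthest from 0, at -2.17 under the Lcn2-/- label and -1.21 in wild type.

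The contractile genes of smooth muscle fell together. Acta2 (chr19:34241090-34255590, minus strand, GRCm38), which encodes smooth muscle α-actin, had 8.46, 10.9, 8.93 and 10 RPKM in the LPS libraries labelled Lcn2-/- and 13.7, 11.9, 15.4 and 13.1 RPKM in their saline counterparts. In wild type it had 9.76, 12, 11.2 and 11.6 RPKM after LPS, against 14.8, 15.9, 14.6 and 15.7 RPKM after saline. The LPS and saline ranges did not overlap under either label. The log2 change was -0.50 ± 0.086 (SE, n = 4 each, limma adjusted p = 2.0e-04) under the Lcn2-/- label and -0.45 ± 0.086 (limma adjusted p = 8.9e-04) in wild type. Myh11 (chr16:14194535-14291372, minus strand), the smooth muscle myosin heavy chain, had 1.77, 2.31, 1.80 and 1.86 RPKM after LPS and 3.20, 3.02, 3.40 and 3.67 RPKM after saline under the Lcn2-/- label. Wild-type brains had 1.99, 2.49, 2.08 and 2.18 RPKM of Myh11 after LPS and 3.00, 3.45, 3.31 and 3.94 RPKM after saline. Again every LPS library lay below every saline library of its label. Myh11 fell by 0.78 ± 0.10 on the log2 scale under the Lcn2-/- label (limma adjusted p = 1.6e-05) and by 0.65 ± 0.10 in wild type (limma adjusted p = 1.8e-04). In percent of the saline level it fell by 41.9% under the Lcn2-/- label and fell by 36.1% in wild type.

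Tagln (chr9:45929619-45936058, minus strand) encodes transgelin, an actin-binding protein of smooth muscle also called SM22α. Under the Lcn2-/- label it had 6.23, 7.74, 6.16 and 5.88 RPKM after LPS and 8.89, 8.16, 10 and 6.98 RPKM after saline, and these ranges overlapped through LPS replicate 2 and saline replicate 4. Wild-type libraries had 5.84, 7.84, 6.62 and 7.09 RPKM after LPS and 8.79, 10.5, 9.73 and 10.3 RPKM after saline, with no overlap. The log2 change was -0.38 ± 0.11 (limma adjusted p = 0.011) under the Lcn2-/- label, or -0.47 (adjusted p = 0.0017) without saline replicate 4, and -0.53 ± 0.11 (limma adjusted p = 0.0024) in wild type. In GENCODE vM21, 1241 exonic bases of Tagln (62.4%) are also exonic in the antisense gene Gm48529, and whether the authors' counting used strand is not stated, so reads of the pair cannot be told apart.

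Other genes of the contractile apparatus were counted from a list of 24, of which 21 were tested. Under the Lcn2-/- label 2 were higher and 10 lower, with a median log2 change of -0.16, and in wild type 2 were higher and 11 lower, with a median of -0.20. Without saline replicate 4 labelled Lcn2-/-, 3 were higher and 12 lower under the Lcn2-/- label, and 2 were higher and 12 lower in wild type. The share called lower was above that of all genes tested under both labels, and the list's median lay nearer to 0 than that of the 10 markers. Pln, encoding phospholamban, the regulator of the calcium pump of the sarcoplasmic reticulum, had 0.352 to 0.403 RPKM after LPS and 1.03 to 1.30 RPKM after saline under the Lcn2-/- label. In wild type Pln had 0.428 to 0.902 RPKM after LPS and 1.23 to 1.52 RPKM after saline. Aoc3, the vascular amine oxidase, passed the filter on low values through saline libraries alone, so that, as for Anpep, the filter favoured a fall. Its log2 change was -2.17 ± 0.28 (limma adjusted p = 1.4e-05) under the Lcn2-/- label and -1.92 ± 0.28 (limma adjusted p = 8.3e-05) in wild type. All LPS libraries held under 0.2 RPKM of Aoc3, and its log2 change was -0.68 and -0.60 for the same labels with 0.5 RPKM added before the logarithm. Filip1l and Mustn1, which is named for its expression in muscle and skeleton, were the 2 higher genes: Mustn1 had 1.88 to 2.64 RPKM after LPS and 1.11 to 2.01 RPKM after saline under the Lcn2-/- label, and 2.58 to 3.09 RPKM after LPS and 1.53 to 1.86 RPKM after saline in wild type. Cnn1, Actg2 and Kcnmb1 did not pass the filter on low values and were not tested.

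Genes of the SRF and myocardin axis moved in both directions. Srf and its coactivator genes were listed with other genes of the same axis, so the count is not one of regulators alone. Of 7 tested, 1 was higher and 3 were lower under the Lcn2-/- label, and 2 were higher and 3 lower in wild type. Over all genes 20.7% were higher and 27.7% lower under the Lcn2-/- label, and 11.4% and 13.9% in wild type, and nothing particular to these 7 genes was tested. The wild-type call for Fhl2, with a log2 change of 0.22 ± 0.076 (limma adjusted p = 0.048), held in 12 of 27 alternatives. Srf had 5.34 to 6.06 RPKM after LPS and 7.48 to 7.93 RPKM after saline under the Lcn2-/- label, and 5.69 to 6.33 RPKM after LPS and 7.08 to 7.84 RPKM after saline in wild type, with log2 changes of -0.47 ± 0.049 (limma adjusted p = 1.4e-06) and -0.31 ± 0.049 (limma adjusted p = 1.7e-04). The coactivator gene Mrtfa was higher after LPS, at 6.21 to 7.16 RPKM against 4.46 to 5.01 RPKM after saline under the Lcn2-/- label, and at 6.35 to 7.27 RPKM against 4.29 to 4.98 RPKM in wild type. Its log2 change was 0.49 ± 0.063 (limma adjusted p = 1.3e-05) under the Lcn2-/- label and 0.55 ± 0.063 (limma adjusted p = 6.5e-06) in wild type. Both genes are expressed in most brain cells, so these levels are of the whole tissue. Myocd, the smooth muscle member of the family, was not tested because of its low level.

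Promoter windows were read because the contractile genes are textbook targets of SRF, while Notch signalling acts on mural cell genes through RBPJ. SRF binds a CArG box, an A/T stretch between CC and GG. The windows of 250 bases before the RefSeq start were read for 7 of the 10 genes. The 4 shown are of Acta2 (contractile), Kcnj8 (higher after LPS in wild type), Vtn (the pericyte gene with most RNA) and Anpep (largest change). They lie in GRCm38.p6 at chr19:34255374-34255623 (minus strand) for Acta2, chr6:142571615-142571864 (minus strand) for Kcnj8, chr11:78498870-78499119 (plus strand) for Vtn and chr7:79848211-79848460 (minus strand) for Anpep. The outermost GENCODE start differs from the RefSeq start for 3 of them: the Anpep window lies inside the GENCODE gene, most of the Acta2 window does, with both of its CArG matches, and so does the end of the Vtn window nearest the start. Capitals mark matches to a CArG box with at most 1 mismatch, to the MCAT element CATTCC or to the RBPJ core TGGGAA, on either strand.
Acta2: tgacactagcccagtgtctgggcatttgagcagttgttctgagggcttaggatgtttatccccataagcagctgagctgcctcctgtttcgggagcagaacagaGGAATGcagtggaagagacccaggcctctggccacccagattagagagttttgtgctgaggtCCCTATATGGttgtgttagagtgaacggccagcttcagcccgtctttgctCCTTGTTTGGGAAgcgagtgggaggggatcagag
Kcnj8: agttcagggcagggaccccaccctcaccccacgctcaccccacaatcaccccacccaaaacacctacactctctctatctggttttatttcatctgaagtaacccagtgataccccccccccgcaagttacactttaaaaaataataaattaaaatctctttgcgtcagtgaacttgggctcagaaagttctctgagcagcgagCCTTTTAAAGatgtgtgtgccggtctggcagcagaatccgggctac
Vtn: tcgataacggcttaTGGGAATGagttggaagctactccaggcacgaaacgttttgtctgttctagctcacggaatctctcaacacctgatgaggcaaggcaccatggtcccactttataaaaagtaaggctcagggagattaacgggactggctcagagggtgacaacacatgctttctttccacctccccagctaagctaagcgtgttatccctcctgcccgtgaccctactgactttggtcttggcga
Anpep: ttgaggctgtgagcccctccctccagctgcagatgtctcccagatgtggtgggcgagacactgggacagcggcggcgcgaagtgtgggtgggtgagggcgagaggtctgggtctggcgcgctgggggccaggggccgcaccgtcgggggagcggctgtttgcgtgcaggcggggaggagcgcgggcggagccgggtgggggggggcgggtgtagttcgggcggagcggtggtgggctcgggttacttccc

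Acta2 held CArG matches with 1 mismatch from 84 to 75 and from 34 to 25 bases before the start. The second of these overlapped an RBPJ core from 27 to 22 bases, and an MCAT element on the minus strand lay from 146 to 141 bases. Kcnj8 held a CArG match with 1 mismatch from 46 to 37 bases before its start. Vtn held an MCAT element on the minus strand, from 234 to 229 bases, that overlapped an RBPJ core. Anpep and Rgs5 held none of these letters, and none of the 7 windows held a CArG box without a mismatch. Among 32851 mouse windows of the same length, 18.6% held a CArG box with at most 1 mismatch, 1.47% one without a mismatch, 12.6% an MCAT element and 21.6% an RBPJ core, so matches of this kind are common. They are letters in a window, and binding was not measured in these data.

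Kcnj8 and Abcc9 encode the pore and the regulatory sulfonylurea receptor subunit of the ATP-sensitive potassium channel of pericytes and smooth muscle, and their estimates had opposite signs. Kcnj8 (chr6:142564837-142571614, minus strand) had 1.91, 2.33, 2.02 and 2.26 RPKM after LPS and 1.67, 1.89, 1.77 and 1.79 RPKM after saline under the Lcn2-/- label. In wild type it had 2.18, 2.22, 2.48 and 1.93 RPKM after LPS and 1.51, 1.81, 1.53 and 2.14 RPKM after saline, and these ranges overlapped through LPS replicate 4 and saline replicate 4. The LPS libraries lay above the saline libraries under the Lcn2-/- label, by a narrow gap. Kcnj8 had a log2 change of 0.26 ± 0.11 (limma adjusted p = 0.063) under the Lcn2-/- label, which missed the threshold, and 0.34 ± 0.11 (limma adjusted p = 0.031) in wild type. The wild-type call for Kcnj8 was lost without wild-type LPS replicate 1 (adjusted p = 0.059), 2 (0.068) or 3 (0.095), without wild-type saline replicate 1 (0.095) or 3 (0.10), and in a fit of those 8 libraries alone (0.054). Under the Lcn2-/- label Kcnj8 passed without LPS replicate 1 of that label (0.042), without wild-type saline replicate 4 (0.032), with sample weights (0.035) and in a fit of those 8 libraries alone (0.042).

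Abcc9 (chr6:142587862-142702315, minus strand) had 0.771, 0.999, 0.987 and 0.912 RPKM after LPS and 1.09, 1.06, 1.15 and 1.63 RPKM after saline under the Lcn2-/- label. Wild-type libraries had 1.01, 1.23, 1.23 and 0.883 RPKM after LPS and 1.03, 1.12, 1.15 and 1.19 RPKM after saline, which overlapped throughout. The log2 change was -0.41 ± 0.14 (limma adjusted p = 0.028) under the Lcn2-/- label and -0.05 ± 0.14 (limma adjusted p = 0.84) in wild type, with an interval from -0.36 to 0.25. Saline replicate 4 held the highest Abcc9 value under the Lcn2-/- label, and without it the change was -0.27 (adjusted p = 0.083). That call was also lost without LPS replicate 1 (adjusted p = 0.088) or 4 (0.052) of the same label, with a correction for GC content and length (0.057), with sample weights (0.067) and in a fit of those 8 libraries alone (0.071). The ratio of Kcnj8 to Abcc9 in RPKM, given as a description with no test, was 2.05 to 2.48 after LPS and 1.10 to 1.78 after saline under the Lcn2-/- label, and 1.79 to 2.18 after LPS and 1.33 to 1.80 after saline in wild type. The paralogous subunits of neurons and endocrine cells gave 5.19 to 5.87 RPKM of Kcnj11 after LPS and 6.86 to 8.68 RPKM after saline under the Lcn2-/- label, a log2 change of -0.44 ± 0.076 (limma adjusted p = 2.3e-04), against -0.03 ± 0.076 (limma adjusted p = 0.84) in wild type. Abcc8, the other subunit gene of that pair, did not pass the test under either label, with log2 changes of 0.09 and -0.03.

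Vtn and Rgs5 were the most abundant of the markers, and both were lower after LPS. Vtn (chr11:78499091-78502324, plus strand) encodes vitronectin, a matrix and plasma glycoprotein that brain pericytes secrete. Its level was 19.9, 23.3, 21.1 and 21.2 RPKM after LPS and 30.8, 32.2, 33.2 and 30.2 RPKM after saline under the Lcn2-/- label. In wild type it was 22.6, 22.0, 22.2 and 23.0 RPKM after LPS and 33.7, 33.6, 33.0 and 31.0 RPKM after saline. The gap between LPS and saline libraries was wider than the range within any group. Vtn fell by 32.4%, or -0.57 ± 0.045 on the log2 scale (limma adjusted p = 6.5e-08), under the Lcn2-/- label. It fell by 31.5%, or -0.55 ± 0.045 (limma adjusted p = 1.5e-07), in wild type. The difference between these changes was -0.02, with an interval from -0.15 to 0.12 on the log2 scale. Rgs5 (chr1:169655501-169695813, plus strand) encodes a regulator of G protein signalling that shortens signals through Gαi and Gαq in mural cells. It had 19.9, 21.8, 21.4 and 20.3 RPKM after LPS and 24.5, 23.0, 24.7 and 28.1 RPKM after saline under the Lcn2-/- label. Wild-type libraries had 20.5, 21.3, 22.5 and 22.0 RPKM after LPS and 25.7, 26.0, 26.4 and 25.8 RPKM after saline. Every LPS library was below every saline library of its label, by a smaller step than for Vtn. The log2 change was -0.26 ± 0.051 (limma adjusted p = 6.1e-04) under the Lcn2-/- label, or -0.21 without saline replicate 4, and -0.27 ± 0.051 (limma adjusted p = 1.0e-03) in wild type.

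Among genes that act with vitronectin, 7 were tested. Of these 3 were higher and 1 lower under the Lcn2-/- label, against 2 higher and 1 lower in wild type. Over all genes tested 20.7% were higher and 27.7% lower under the Lcn2-/- label, and 11.4% and 13.9% in wild type. Without saline replicate 4 labelled Lcn2-/- the wild-type count was 3 higher and 2 lower. Plaur, the urokinase receptor that also binds vitronectin, had 8.69 to 11.3 RPKM after LPS and 0.127 to 0.428 RPKM after saline under the Lcn2-/- label, and 5.13 to 6.89 RPKM after LPS and 0.303 to 0.623 RPKM after saline in wild type. Itgb3, the β3 subunit of the vitronectin receptor integrin, was lower, by -0.46 ± 0.094 (limma adjusted p = 8.3e-04) under the Lcn2-/- label and -0.43 ± 0.094 (limma adjusted p = 0.0028) in wild type. The other regulators of G protein signalling included Rgs2, with 9.33 to 9.92 RPKM after LPS and 14.5 to 16.1 RPKM after saline under the Lcn2-/- label, and 10.3 to 11.5 RPKM after LPS and 13.9 to 15.5 RPKM after saline in wild type. Of the 4 tested regulators 0 were higher and 2 lower under the Lcn2-/- label, and 1 was higher and 3 lower in wild type. The shares over all genes given for the vitronectin list apply here too. Rgs4, mostly a neuronal gene that is also on the pericyte list, fell by 0.51 ± 0.059 (limma adjusted p = 4.3e-06) under the Lcn2-/- label and by 0.34 ± 0.059 (limma adjusted p = 3.9e-04) in wild type.

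The cell-surface markers differed among themselves. Pdgfrb (chr18:61045150-61085061, plus strand), the receptor for platelet-derived growth factor B, had 3.86, 4.05, 3.31 and 4.00 RPKM after LPS and 3.62, 3.28, 3.49 and 3.65 RPKM after saline under the Lcn2-/- label. Wild-type libraries had 3.97, 4.29, 3.65 and 4.42 RPKM after LPS and 3.94, 3.58, 3.59 and 3.46 RPKM after saline, and the ranges overlapped under both labels. Pdgfrb did not pass the test: the log2 change was 0.11 ± 0.074 (limma adjusted p = 0.22), with an interval from -0.04 to 0.27, under the Lcn2-/- label, and 0.16 ± 0.074 (limma adjusted p = 0.13), with an interval from 0.01 to 0.32, in wild type. In wild type it passed without LPS replicate 3 (0.21, adjusted p = 0.047) and with sample weights (0.20, adjusted p = 0.029). Both intervals leave out a change as large as that of Vtn, whose estimates were -0.57 and -0.55 for the same labels.

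Cspg4 (chr9:56865033-56899870, plus strand) encodes the proteoglycan NG2, which pericytes share with oligodendrocyte precursor cells. It had 1.94, 2.48, 2.60 and 2.16 RPKM after LPS and 3.04, 3.45, 3.43 and 1.97 RPKM after saline under the Lcn2-/- label, where saline replicate 4 lay among the LPS libraries. In wild type it had 2.09, 1.98, 2.29 and 1.54 RPKM after LPS and 2.91, 3.15, 3.05 and 3.04 RPKM after saline, with no overlap. Cspg4 had a log2 change of -0.34 ± 0.16 (limma adjusted p = 0.085) under the Lcn2-/- label, but -0.53 (adjusted p = 0.0016) without saline replicate 4 and -0.48 (adjusted p = 0.0017) with sample weights, and -0.63 ± 0.16 (limma adjusted p = 0.0073) in wild type. Of 9 tested markers of oligodendrocyte precursors, 0 were higher and 3 lower after LPS under the Lcn2-/- label, where 27.7% of all genes were lower, and 1 was higher and 5 lower in wild type, where 13.9% were lower. Their summed level was 87.0 to 105 RPKM after LPS and 92.2 to 105 RPKM after saline under the Lcn2-/- label, and 85.3 to 96.3 RPKM after LPS and 92.3 to 107 RPKM after saline in wild type. Olig1 made up most of that sum, at 57.2 to 72.1 RPKM after LPS and 45.3 to 60.2 RPKM after saline under the Lcn2-/- label, and 54.0 to 62.0 RPKM after LPS and 50.3 to 61.4 RPKM after saline in wild type. Sox10 and Gpr17 were lower under both labels: Sox10 had a log2 change of -1.34 ± 0.066 (limma adjusted p = 2.0e-10) under the Lcn2-/- label and -1.04 ± 0.066 (limma adjusted p = 7.3e-09) in wild type, and Gpr17 had -1.94 ± 0.17 (limma adjusted p = 2.1e-07) and -0.88 ± 0.17 (limma adjusted p = 0.0012) for the same labels. None of those 9 was under 0.5 RPKM in all libraries of a group. Their part in the Cspg4 result was not tested.

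Anpep (chr7:79821803-79861059, minus strand) encodes aminopeptidase N, or CD13, a surface peptidase of pericytes that myeloid blood cells also carry. Its level was 0.211, 0.246, 0.213 and 0.172 RPKM after LPS and 0.955, 0.962, 1.03 and 0.823 RPKM after saline under the Lcn2-/- label. In wild type it was 0.477, 0.473, 0.492 and 0.361 RPKM after LPS and 1.18, 1.15, 0.890 and 0.954 RPKM after saline. The 3 levels were thus distinct: lowest after LPS under the Lcn2-/- label, intermediate after LPS in wild type, and highest after saline, where the labels overlapped. Anpep had a log2 change of -2.17 ± 0.15 (limma adjusted p = 1.4e-08) under the Lcn2-/- label and -1.21 ± 0.15 (limma adjusted p = 1.7e-05) in wild type. Anpep is the least abundant of the 10 genes, and with 0.5 RPKM added before the logarithm the changes were -1.02 (adjusted p = 3.3e-08) and -0.70 (adjusted p = 4.5e-06) for the same labels. Low values as a whole were lower in LPS libraries: the 25th percentile of log2 RPKM over all genes was -5.78 to -4.58 in LPS libraries and -4.12 to -2.73 in saline libraries. Anpep ranked at percentile 42.1 to 44.7 of all genes after LPS under the Lcn2-/- label and 48.1 to 50.6 in wild type, and at 54.0 to 57.2 and 55.8 to 58.6 after saline for the same labels. Summed markers of myeloid blood cells went the other way, at 12.1 to 27.4 RPKM after LPS and 6.51 to 8.40 RPKM after saline under the Lcn2-/- label. In wild type they were 12.4 to 19.2 RPKM after LPS and 4.46 to 9.25 RPKM after saline. S100a8 and S100a9 made up most of that sum after LPS. They had 3.87 to 10.3 and 5.39 to 13.1 RPKM under the Lcn2-/- label, and 4.48 to 6.83 and 4.64 to 8.59 RPKM in wild type. Of 6 tested myeloid markers 3 were higher and 1 lower under the Lcn2-/- label, and 5 were higher and 1 lower in wild type. Over all genes tested 20.7% were higher and 27.7% lower under the Lcn2-/- label, and 11.4% and 13.9% in wild type. Retnlg and Plac8 reached 0.5 RPKM in LPS libraries alone, so the filter favoured a rise of both. Mmp8, Ly6g, Cd177 and Ccr2 were under 0.5 RPKM in every library.

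A list of 20 further pericyte genes, all tested, held calls in both directions. After LPS 4 were higher and 13 lower under the Lcn2-/- label, with a median log2 change of -0.58, and 2 were higher and 10 lower in wild type, with a median of -0.36. The same shares over all genes tested apply here as for the markers: 20.7% higher and 27.7% lower under the Lcn2-/- label, and 11.4% and 13.9% in wild type. Without saline replicate 4 labelled Lcn2-/-, 3 were higher and 13 lower under the Lcn2-/- label, and 2 were higher and 13 lower in wild type. Foxf2, a forkhead factor needed for brain pericytes in mice, had 0.970, 0.721, 0.927 and 0.810 RPKM after LPS and 2.14, 2.08, 2.26 and 2.03 RPKM after saline under the Lcn2-/- label. Wild-type libraries had 1.34, 1.36, 1.57 and 1.35 RPKM after LPS and 1.89, 1.87, 2.21 and 2.0 RPKM after saline. Tbx18, a T-box factor of mural cells, had 0.298 to 0.430 RPKM after LPS and 0.709 to 1.01 RPKM after saline under the Lcn2-/- label, and 0.452 to 0.602 RPKM after LPS and 0.706 to 0.864 RPKM after saline in wild type. Heyl, a Notch target, fell by 1.10 ± 0.13 on the log2 scale under the Lcn2-/- label (limma adjusted p = 7.5e-06) and by 0.96 ± 0.13 in wild type (limma adjusted p = 4.9e-05). Of the genes that rose, Ifitm1, an interferon-induced transmembrane protein, had 6.60 to 9.47 RPKM after LPS and 0.908 to 2.10 RPKM after saline under the Lcn2-/- label, and 7.69 to 9.47 RPKM after LPS and 1.47 to 2.09 RPKM after saline in wild type. Art3, an ADP-ribosyltransferase family member, rose by 3.02 ± 0.16 under the Lcn2-/- label (limma adjusted p = 5.1e-10) and by 0.85 ± 0.16 in wild type (limma adjusted p = 9.5e-04).

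Genes of mural cell recruitment numbered 18, all tested, and 2 were higher and 7 lower after LPS under the Lcn2-/- label, against 3 higher and 7 lower in wild type, with medians of -0.09 and -0.11. Under the Lcn2-/- label the share called higher was below the 20.7% of all genes and the share called lower was above 27.7%, while in wild type both were above the 11.4% and 13.9% of all genes. Pdgfb, the endothelial ligand of PDGFRβ, had 4.26, 3.73, 3.75 and 4.74 RPKM after LPS and 8.03, 8.02, 8.05 and 7.60 RPKM after saline under the Lcn2-/- label. In wild type Pdgfb had 7.34, 6.05, 5.21 and 6.03 RPKM after LPS and 7.11, 6.97, 6.98 and 6.96 RPKM after saline. It fell by 0.95 ± 0.087 on the log2 scale under the Lcn2-/- label (limma adjusted p = 3.3e-07), while in wild type the change was -0.20 ± 0.087 (limma adjusted p = 0.12), or -0.28 (adjusted p = 0.013) without LPS replicate 1. Acvrl1, the endothelial type I receptor for bone morphogenetic proteins, fell by 1.13 ± 0.11 under the Lcn2-/- label (limma adjusted p = 9.1e-07) and by 0.55 ± 0.11 in wild type (limma adjusted p = 0.0018). Jag1, a Notch ligand, had a log2 change of -0.64 ± 0.093 (limma adjusted p = 4.5e-05) under the Lcn2-/- label and -0.63 ± 0.093 (limma adjusted p = 9.8e-05) in wild type. Tgfbr2, the type II receptor for transforming growth factor β, was higher, with 4.72 to 5.72 RPKM after LPS and 3.19 to 3.59 RPKM after saline under the Lcn2-/- label, and 5.80 to 6.62 RPKM after LPS and 3.40 to 3.95 RPKM after saline in wild type.

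**Figure D3:**
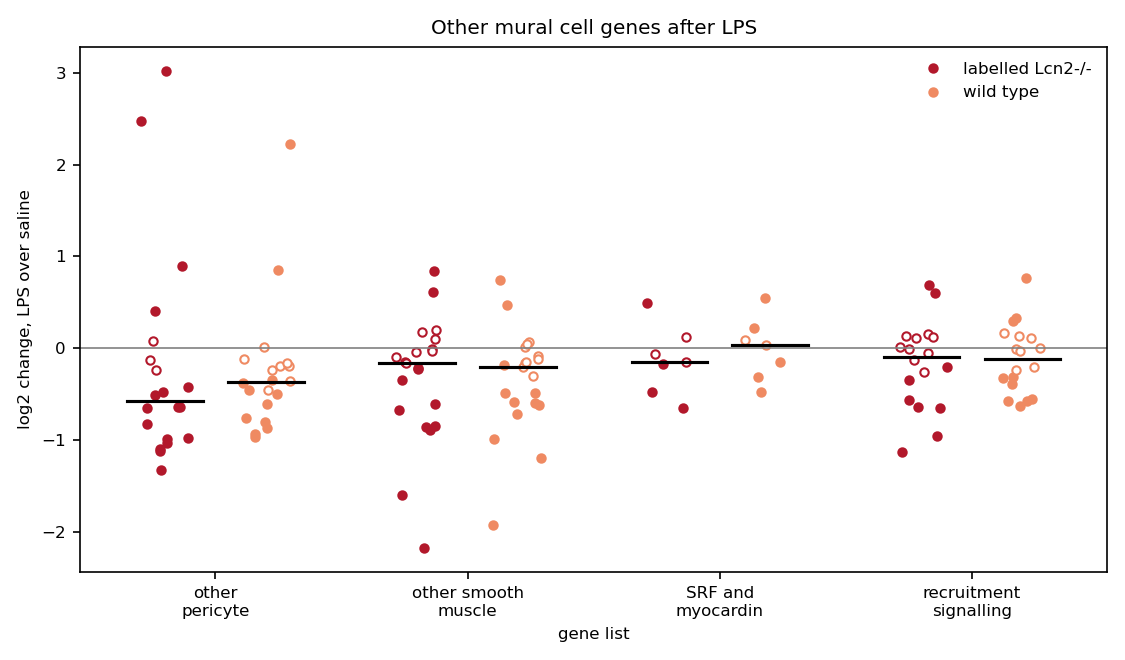
Log2 change of LPS over saline for each tested gene of 4 lists of mural cell genes, with 1 point for each gene (filled: adjusted p under 0.05) and a line at each list's median. The medians of the other pericyte genes are -0.58 under the Lcn2-/- label and -0.36 in wild type, and those of the recruitment genes are -0.09 and -0.11 for the same labels.

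Markers of other vessel-associated cells moved in the same libraries. Summed endothelial markers were 59.3 to 71.4 RPKM after LPS and 73.5 to 86.6 RPKM after saline under the Lcn2-/- label. In wild type they were 61.7 to 68.2 RPKM after LPS and 89.3 to 98.4 RPKM after saline. Slco1a4 alone held 0.629 to 1.12 RPKM after LPS and 19.5 to 21.4 RPKM after saline under the Lcn2-/- label. In wild type Slco1a4 held 3.35 to 5.75 RPKM after LPS and 21.0 to 22.1 RPKM after saline. Under the Lcn2-/- label the fall in the endothelial sum thus lay wholly in Slco1a4, and the sum of the other markers did not fall. In wild type Slco1a4 held the larger part of the fall. Of 12 endothelial markers 2 were higher and 7 lower under the Lcn2-/- label, and 2 were higher and 6 lower in wild type. Over all genes tested 20.7% were higher and 27.7% lower under the Lcn2-/- label, and 11.4% and 13.9% in wild type. In wild type Cdh5 and Esam, both endothelial junction genes, were the higher pair, and Tek and Slco1a4 had the largest falls. The summed pericyte markers of the 10 genes were 48.5 to 55.3 RPKM after LPS and 65.7 to 68.8 RPKM after saline under the Lcn2-/- label, and 52.8 to 54.9 RPKM after LPS and 67.6 to 70.3 RPKM after saline in wild type. Vtn and Rgs5 made up most of that pericyte sum and of its fall, while the LPS estimates for Pdgfrb and Kcnj8 were above 0. Summed fibroblast markers were 78.7 to 94.4 RPKM after LPS and 99.8 to 105 RPKM after saline under the Lcn2-/- label. In wild type, however, they were 116 to 128 RPKM after LPS and 97.1 to 111 RPKM after saline. Mgp, the largest part of that sum, had 31.0 to 42.0 RPKM after LPS and 47.2 to 51.1 RPKM after saline under the Lcn2-/- label. In wild type Mgp had 66.2 to 69.9 RPKM after LPS and 41.8 to 55.8 RPKM after saline. Of 11 fibroblast markers tested 1 was higher and 6 lower under the Lcn2-/- label, and 3 were higher and 5 lower in wild type. The shares over all genes given for the endothelial markers apply here too. Lama1 reached 0.5 RPKM in saline libraries alone, so the filter favoured its fall. Among endothelial markers Tek alone was under 0.5 RPKM throughout a group, in the LPS libraries labelled Lcn2-/-, and among fibroblast markers Dpt was so in every group and Lama1 in both LPS groups. The part of these cells in the marker results was not tested.

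**Figure D4:**
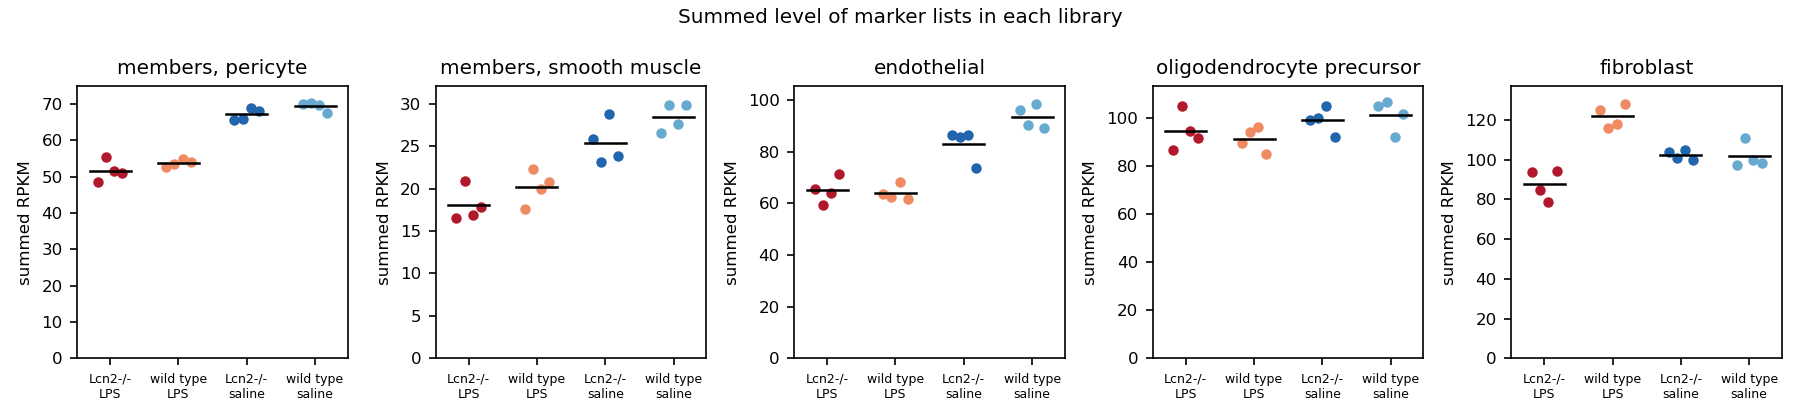
Summed RPKM of the pericyte and smooth muscle markers and of markers of endothelial cells, oligodendrocyte precursors and fibroblasts, with 1 point for each library and a line at the group mean. The 2 marker sums and the endothelial sum are lower after LPS under both labels. Vtn and Rgs5 hold most of the pericyte sum. The endothelial fall lies wholly in Slco1a4 under the Lcn2-/- label, and for the larger part in wild type. Oligodendrocyte precursor sums, mostly Olig1, overlap between LPS and saline. Fibroblast sums after LPS are 78.7 to 94.4 RPKM under the Lcn2-/- label and 116 to 128 RPKM in wild type. Mgp is the largest part of the fibroblast sums.

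The second question was whether the genotype label changed the markers. After LPS 0 of the 10 genes were higher and 1, Anpep, was lower in libraries labelled Lcn2-/- than in wild type, where 7.04% of all genes tested were higher and 8.74% lower. Anpep had a log2 difference of -1.10 ± 0.15 (limma adjusted p = 3.0e-04), with all 4 libraries labelled Lcn2-/- below all 4 wild-type libraries, and of -0.42 (adjusted p = 0.0022) with 0.5 RPKM added before the logarithm. Acta2 had a difference of -0.22 ± 0.086 (limma adjusted p = 0.090), which passed without LPS replicate 2 labelled Lcn2-/- (-0.29, adjusted p = 0.047) or wild-type LPS replicate 1 (-0.28, adjusted p = 0.049). For the other 8 genes the difference lay between -0.24 for Abcc9 and 0.22 for Cspg4, with intervals from -0.55 to 0.07 and from -0.11 to 0.56. After saline 0 of the 10 genes passed the limma test, and 0 had an unadjusted p under 0.05, while 0.0346% of all genes tested were higher and 0.0115% lower. The saline differences of the 10 genes ran from -0.22 ± 0.11 for Tagln (limma adjusted p = 0.49) to 0.11 ± 0.14 for Abcc9 (limma adjusted p = 0.77).

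The test of the difference itself asked whether LPS acted differently under the 2 labels. Among the 10 genes 0 had a more positive and 1 a more negative LPS effect under the Lcn2-/- label, against 3.9% and 4.92% of all genes tested. That gene was Anpep, with a difference of -0.96 ± 0.21 (limma adjusted p = 0.017), which was -0.32 (adjusted p = 0.073) and no longer passed with 0.5 RPKM added before the logarithm. Without saline replicate 4 labelled Lcn2-/- it was -1.02 (adjusted p = 0.0089). Abcc9, whose LPS change passed only under the Lcn2-/- label, had a difference of -0.36 ± 0.20 (limma adjusted p = 0.26), and Cspg4 and Kcnj8, whose changes passed only in wild type, had differences of 0.29 ± 0.22 (limma adjusted p = 0.41) and -0.08 ± 0.15 (limma adjusted p = 0.76), so an unequal response was not shown for these 3.

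Some of the further mural genes did differ between labels. Of the 20 further pericyte genes 2 were higher and 6 lower under the Lcn2-/- label after LPS, and 2 had a more positive and 1 a more negative LPS effect. Over all genes tested 7.04% were higher and 8.74% lower after LPS, and 3.9% had a more positive and 4.92% a more negative LPS effect, so the share with a more negative effect was near that of all genes. The first count, 8 in all, was 5 without LPS replicate 3 labelled Lcn2-/- or wild-type LPS replicate 3, and 4 without wild-type LPS replicate 1, and the second, 3 in all, was 6 without saline replicate 4 labelled Lcn2-/-. Foxf2 had a difference of -0.72 ± 0.095 after LPS (limma adjusted p = 1.9e-04) and a difference between LPS effects of -0.82 ± 0.13 (limma adjusted p = 0.0032). Art3 was at 7.14, 8.43, 9.32 and 5.43 RPKM in LPS libraries labelled Lcn2-/- and at 1.54, 1.5, 1.53 and 2.27 RPKM in wild-type LPS libraries, and its LPS effects differed by 2.17 ± 0.23 (limma adjusted p = 1.8e-04). Ebf1, an early B cell factor gene also expressed in mural cells, had LPS effects that differed by 0.60 ± 0.14 (limma adjusted p = 0.020). Its level was 1.54 to 1.99 RPKM after LPS and 1.14 to 1.42 RPKM after saline under the Lcn2-/- label. In wild type it was 1.32 to 1.62 RPKM after LPS and 1.52 to 1.71 RPKM after saline. The saline ranges of the labels did not overlap, so part of the Ebf1 difference lay in the saline libraries.

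Of the 18 recruitment genes 2 were higher and 5 lower under the Lcn2-/- label after LPS, against 7.04% and 8.74% of all genes, a count of 7 that was 4 without LPS replicate 3 labelled Lcn2-/- or wild-type LPS replicate 1. The LPS effects on Pdgfb differed by -0.75 ± 0.12 (limma adjusted p = 0.0030), with Pdgfb saline values of 7.60 to 8.05 RPKM under the Lcn2-/- label and 6.96 to 7.11 RPKM in wild type that did not overlap. Hbegf, the heparin-binding EGF-like growth factor, had 5.45 to 6.85 RPKM under the Lcn2-/- label and 3.59 to 4.86 RPKM in wild type after LPS, and its LPS effects differed by 0.58 ± 0.13 (limma adjusted p = 0.019). Those on Acvrl1 differed by -0.58 ± 0.16 (limma adjusted p = 0.037), a call that held in 14 of 26 alternatives. Among the 21 smooth muscle genes tested 1 was higher and 3 lower, near the 7.04% and 8.74% of all genes, under the Lcn2-/- label after LPS, a count of 4 that was 7 without saline replicate 4 of that label. Lmod1, the smooth muscle leiomodin that nucleates actin filaments, had 0.206 to 0.302 RPKM under the Lcn2-/- label and 0.406 to 0.517 RPKM in wild type after LPS, a log2 difference of -0.83 ± 0.15 (limma adjusted p = 0.0026). The difference between its LPS effects was -0.59 ± 0.22 (limma adjusted p = 0.095). Lmod1 was under the 0.5 RPKM of the filter in every LPS library except that at 0.517 RPKM, so these levels are low. Kcnj11 had LPS effects that differed by -0.41 ± 0.11 (limma adjusted p = 0.030), a call that held in 18 of 26 alternatives.

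**Figure D5:**
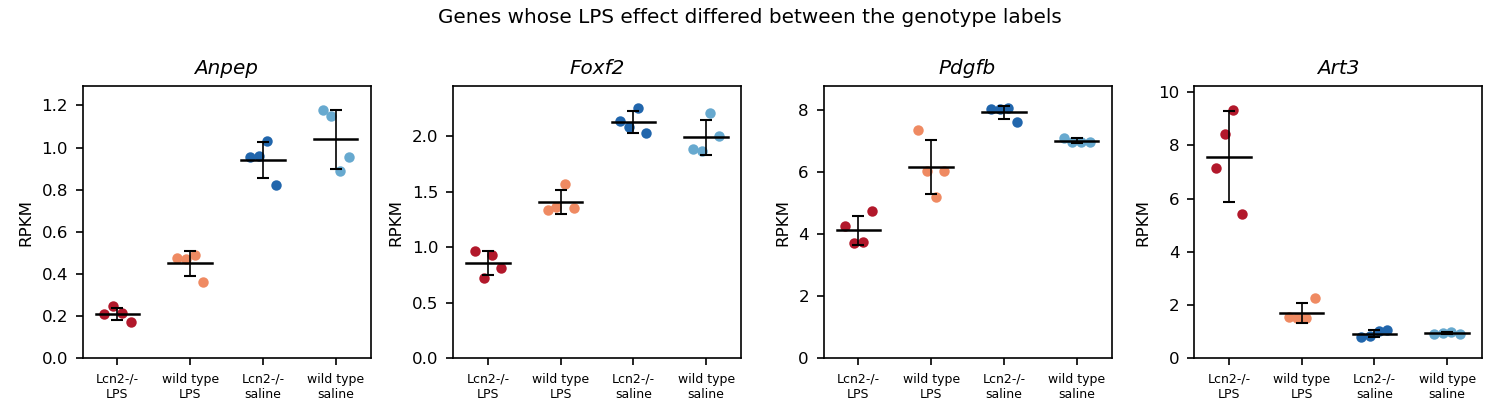
Level in RPKM on linear axes from 0 of Anpep and of the mural genes Foxf2, Pdgfb and Art3, with 1 point for each library, the mean and bars of 1 SD (n = 4 in each group). After LPS the libraries labelled Lcn2-/- lie below the wild-type libraries for Anpep, Foxf2 and Pdgfb and above them for Art3, at 5.43 to 9.32 RPKM against 1.5 to 2.27 RPKM.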

How the data were processed

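RNA was sequenced from 16 mouse hemi-brains, 4 in each combination of genotype label and injection. Per the labels' protocols, total RNA was column-purified with DNase treatment and libraries followed a standard Illumina preparation; the genome build is mm10 per the submitters' processing notes, and no source names the aligner, counter or strand setting. The deposited table's name states that the authors applied conditional quantile normalization (CQN), and its values are log2 RPKM without counts, so depth and counting error are unknown. Levels in RPKM were computed as the antilogarithm of the deposited log2 values.

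Genes with log2 RPKM of at least -1 (0.5 RPKM) in at least 3 libraries were tested, 17349 of 33289. A group-means model of all 16 libraries was fitted with limma 3.58.1 in R 4.3.3, with moderation along the mean trend, and was tested on simulated data. Tests were two-sided, with Benjamini-Hochberg adjustment over all genes tested and a threshold of 0.05. Intervals are unadjusted 95% intervals of the moderated fit. Symbols and positions came from GENCODE vM21, and 32695 genes (98.2%) had a symbol. Alternatives changed the normalization, the pseudocount (0.5 or 0.1 RPKM), the filter, the moderation, the sample weights, the libraries fitted or left out 1 library, and for the further lists they were added after the data were seen.

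The 10 genes and all lists were chosen with earlier results of these data known. The text names all 10 in every comparison, Lcn2 as the targeted gene and, from each list, at most 2 called genes in each direction, chosen by size of change; a gene named for 1 label is given for both. Abcc8, untested genes and markers of other cell types were named after their values were seen. No 2 libraries held identical values. For 1 gene counted among those that act with vitronectin, values are not reported here.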

Additional observations from a re-analysis of the deposited data

Results flagged for a closer look

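Anpep gave both results of this kind. In wild-type LPS libraries its lowest value, 0.361 RPKM in replicate 4, lay far from the other 3, which were 0.473 to 0.492 RPKM, by Dixon's criterion for 4 samples. It was 1 of 40 groups of 4 libraries examined over the 10 genes, and chance flags about 1 in 20. The LPS effect on Anpep was also more negative under the Lcn2-/- label than in wild type, by -0.96 ± 0.21 on the log2 scale (limma adjusted p = 0.017), with 4 of 4 libraries labelled Lcn2-/- below all wild-type libraries after LPS. With 0.5 RPKM added before the logarithm the difference was -0.32 (adjusted p = 0.073), which no longer passed, and Anpep reached 0.5 RPKM in its 8 saline libraries and in 0 LPS libraries, so it passed the filter on low values through saline alone.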

How the results depend on the processing

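No paired analysis was possible because replicate numbers were given in accession order and the labels name no pairing. No direction of a called value reversed under any alternative. The 10 genes gave 6 to 8 calls after LPS under the Lcn2-/- label (7 as reported) and 7 to 9 in wild type (8 as reported), and 0 between labels after saline, in every alternative run. Between labels after LPS the count of 1 was 0 under the stricter filter (1 RPKM in 4 libraries), where Anpep is not tested, and 1 to 2 with 1 library left out, Acta2 being added. The difference between LPS effects gave 1 call, and 0 with 0.5 RPKM added or under the stricter filter; it could not be fitted to only the groups compared. Of 535 single-gene values under other settings, 526 kept their side of the threshold, 5 lost a call and 4 gained it; with 1 library left out these were 786, 8 and 6 of 800. Over all genes, LPS against saline gave 3588 higher and 4798 lower genes under the Lcn2-/- label and 1980 and 2409 in wild type, but 3910 and 13898, and 2310 and 11480, with no filter, which moves the median of all genes to -0.32 and -0.22 on the log2 scale for the same labels. Between labels after LPS, 1222 higher and 1517 lower genes became 2393 and 2902 with sample weights, 2088 and 2305 in a fit of the groups compared, 2376 and 2798 without saline replicate 4 labelled Lcn2-/-, and 725 and 807 without LPS replicate 3 of that label. For the difference between LPS effects, 677 and 853 became 418 and 487 with no filter, 1383 and 1647 with sample weights, and 348 and 379 without wild-type LPS replicate 1. Between labels after saline, 6 and 2 became 27 and 7 with sample weights, 4 and 1 with GC content and length removed, 2 and 1 with no filter or in a fit of the groups compared, and 2 and 1 to 9 and 4 with 1 library left out. The causes were not tested. Depth is unknown, so counting error could not be weighed.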
